A study of Homo sapiens with 24 samples.

Results

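MYC, its dimerization partner MAX, the 3 D-type cyclins CCND1, CCND2 and CCND3, the cyclin-dependent kinases CDK4, CDK6 and CDK2, the retinoblastoma gene RB1 and the kinase inhibitor gene CDKN1B were followed in U87 MG cells after proton therapy (PT), with or without the SRC-family kinase inhibitor Si306. The members were every gene probe whose array gene name was 1 of these symbols, and they made up 10 of 30982 gene names and 22 of 41000 gene probes of the arrays. U87 MG is an established human glioblastoma line, grown here as a plain culture with no transgene. Cells received protons at 2 Gy or 10 Gy and were collected 24 h later. Where Si306 was given, it was added at 10 µM 24 h before the irradiation. Each 2-colour array carried the treated RNA in the red dye Cy5 and the control RNA in the green dye Cy3, and no array had the dyes exchanged. U87 2 Gy and U87 10 Gy were set against untreated cells, U87 Si306 + 2 Gy against U87 2 Gy, and U87 Si306 + 10 Gy against U87 10 Gy. Cells given Si306 without PT were not among the groups, so the Si306 configurations show the compound on top of PT only. Their control RNA has the same PT label as the treated RNA of the PT configurations, and whether it was the same RNA is not known.

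In G1 phase, D-type cyclins bind CDK4 or CDK6, and the kinase complexes phosphorylate the retinoblastoma protein, which frees E2F factors to transcribe S-phase genes. CDK2, paired with cyclin E and then cyclin A, carries this phosphorylation further, and p27, the product of CDKN1B, holds CDK2 back. MYC binds DNA as a dimer with MAX, drives many growth genes, and is known as a short-lived transcript that falls when cells leave the cycle, while cyclin D1 is a known target of growth-factor and SRC-family signalling.

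The labels list 6 biological replicates per configuration, but the scanner headers name 8 arrays on 2 slides, each scanned 3 times, so n = 2 arrays per configuration throughout. Repeat scans were averaged within their array, and 22 of 24 scans were used, because 2 scans carried the label of another array. Whether the 2 arrays of a configuration carry separate cultures is not known, and the p-values measure the spread between these arrays, which may be technical. All PT arrays lay on slide 1 and all Si306 arrays on slide 2, so slide and kind of comparison cannot be told apart. Treated RNA was in Cy5 on every array, so a dye difference of a probe and a treatment effect cannot be told apart in any ratio. The p-values do not measure such a dye difference. Between 57.3% and 66.5% of spots were well above background in Cy3 and 63.4% to 74.7% in Cy5. The glioblastoma markers VIM, CD44, NES and FN1 were well above background in both channels of 8 of 8 arrays and CHI3L1 on 4 of 8. Of markers of other lineages, the leukocyte gene PTPRC was at background on all arrays, while the T cell gene CD3E was above it in Cy3 on 5 and in Cy5 on 8 arrays, the epithelial gene EPCAM on 6 and 7, and the endothelial gene CDH5 on 0 and 3. With Si306, EPCAM was called higher at 2 Gy (0.33) and 10 Gy (0.31), as was CD3E at 10 Gy (0.21), while CD3E at 2 Gy rose at least 1.09-fold with Cy3 at background, and CDH5 was at background in both channels of the Si306 arrays and has no fold. After PT alone 2 of these 3 genes passed the test as higher at 2 Gy and 0 at 10 Gy, where 32% and 31% of gene names did. These counts take no account of signals at background. Their part in the members' results was not tested. In bulk RNA, fewer cells with a transcript and less transcript per cell cannot be told apart.

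All 10 members had a probe that passed the filter on low signal, and 21 of 22 member probes were tested. Values below are log2 ratios of treated over control, first on each array and then as the mean of the 2 arrays, and adjusted p-values come from limma with Benjamini-Hochberg adjustment over 30362 probes. Each member is represented by its brightest tested probe, and a member was called changed at an adjusted p under 0.05. After PT at 2 Gy, 5 members were up regulated (CCND1, CCND3, CDK6, CDK2 and RB1) and 4 were down regulated (MYC, MAX, CDK4 and CDKN1B), that is 9 of 10 where 56.8% of 22898 gene names were called. PT at 10 Gy up regulated 6 members, the former 5 and CDKN1B, and down regulated MYC and CDK4. CCND2 also passed the test there with a negative ratio, which makes 9 of 10 beside 57.2% of all gene names, but its probe passed the filter only through the Si306 arrays and was well above background on 1 of the 2 arrays at 10 Gy, so it is not counted as down regulated. With Si306 added at 2 Gy the balance lay the other way, with 2 members up regulated (CCND2 and CDKN1B) and 7 down regulated (MYC, MAX, CCND1, CCND3, CDK6, CDK2 and RB1), 9 of 10 beside 66% of gene names. With Si306 added at 10 Gy CCND2 was up regulated and MYC, CCND1, CDK2 and RB1 were down regulated, 5 of 10 beside 61.9%. The background for up and down regulation taken apart was 32% and 24.8% at 2 Gy, 31% and 26.2% at 10 Gy, 38.4% and 27.7% for Si306 + 2 Gy, and 34.9% and 27% for Si306 + 10 Gy.

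None of the 10 members reached a 2-fold change by its brightest probe in any configuration under the loess fit, where 0.725%, 0.965%, 0.725% and 0.371% of gene names did in the same order. With the scanner's log ratio CCND2 at 10 Gy (-1.11) and CDK2 with Si306 + 2 Gy (-1.21) did so, and of 30362 probes 1204 and 1784 did in these configurations, against 278 and 198 under the loess fit. The median over the members was 0.04 at 2 Gy, 0.10 at 10 Gy, -0.27 for Si306 + 2 Gy and -0.03 for Si306 + 10 Gy, and the medians over all tested gene names were 0.02, 0.02, 0.04 and 0.03. The directions depended on how the arrays were scaled. When each array was centred on its median instead of being fitted with a loess curve, the members called higher and lower were 6 and 1 at 2 Gy, 6 and 3 at 10 Gy, 8 and 2 for Si306 + 2 Gy and 6 and 3 for Si306 + 10 Gy. Calls over all features rose as well under this centring, to 25163, 24234, 26986 and 24982 of 30362 probes, from 17374, 17655, 19678 and 18480 under the loess fit. Of those called after centring, 12601, 12161, 13445 and 12609 probes were higher and 12562, 12073, 13541 and 12373 lower. Every member whose direction turned under this centring is named with its value below.

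**Figure D1:**
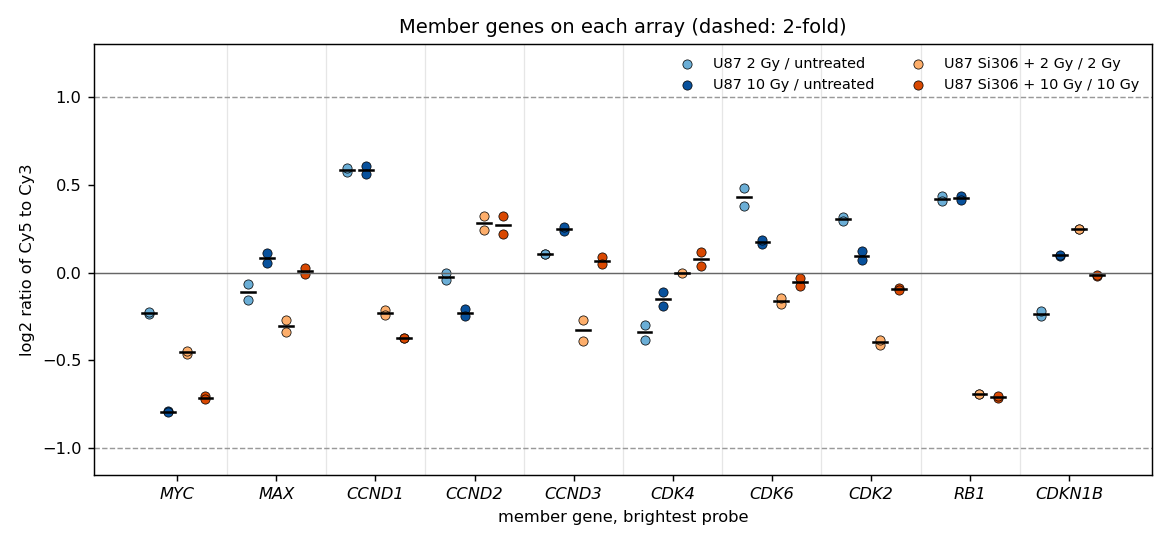
Log2 ratio of treated over control for the brightest probe of each member, with a point for each of the 2 arrays of a configuration. MYC lies below 0 on all 8 arrays, whereas CCND1 and RB1 lie above 0 on the 4 PT arrays and below 0 on the 4 Si306 arrays.

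MYC, the transcription factor at the head of the set, was down regulated in all 4 configurations under the loess fit. Its brightest probe, A_23_P215956 on chromosome 8, is printed 10 times on each array. The ratio was -0.24 and -0.23 on the arrays of U87 2 Gy, and -0.79 on both arrays of U87 10 Gy. It was -0.46 and -0.45 on the arrays of U87 Si306 + 2 Gy, and -0.70 and -0.72 on those of U87 Si306 + 10 Gy. All 8 arrays, each with the treated RNA in Cy5, were below 0, and the arrays of a configuration lay closer to each other than to any other configuration. The means were -0.23 ± 0.03 (SE, n = 2, adjusted p = 7.28e-05), -0.79 (1.73-fold lower, adjusted p = 5.26e-09), -0.45 (1.37-fold lower, adjusted p = 3.33e-07) and -0.71 (1.64-fold lower, adjusted p = 2.39e-08). Under median centring MYC was 0.19 at 2 Gy and 0.27 for Si306 + 2 Gy, the opposite direction, and -0.45 and -0.24 for the configurations at 10 Gy, the same direction.

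Repeat scans of an array moved the MYC ratio very little. On the first 10 Gy array the 3 scans lay between -0.79 and -0.79, and on the first 2 Gy array between -0.25 and -0.21. The SD over the 10 spots of an array ranged from 0.0304 to 0.121. All 4 MYC calls held when any single array was left out. The dimmer probe A_24_P178011, designed on a partial MYC mRNA that starts at the far upstream promoter P0, read 0.09 at 2 Gy, 0.08 at 10 Gy and 0.05 for Si306 + 10 Gy, none of which passed the test, and 0.21 for Si306 + 2 Gy (adjusted p = 0.00268). The third MYC probe, A_24_P38363, was not well above background on any array and was not tested. Over the 8 arrays the named gene profiles closest to that of MYC were H2AFX (root mean square difference of the log2 ratios 0.122) and MCM3APAS (0.136).

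MAX, which dimerizes with MYC and with the MXD repressors, changed by smaller amounts than MYC under the loess fit. Under median centring it changed by larger amounts than MYC at 2 Gy and in both Si306 configurations. Its brightest probe, A_23_P205549, read -0.16 and -0.07 on the 2 Gy arrays, with a mean of -0.11 (adjusted p = 0.0226). This call was lost without the first 2 Gy array (-0.07, adjusted p = 0.295). At 10 Gy the arrays read 0.05 and 0.11 (mean 0.08, adjusted p = 0.0810). Si306 + 2 Gy gave the clearest value, -0.34 and -0.27, a mean of -0.30 (adjusted p = 2.76e-05), and Si306 + 10 Gy read -0.01 and 0.02 (adjusted p = 0.860). Under median centring MAX was 0.30 at 2 Gy and 0.40 for Si306 + 2 Gy, the opposite direction, and it gained calls at 10 Gy (0.42, adjusted p = 5.20e-05) and for Si306 + 10 Gy (0.50, adjusted p = 1.77e-05). The MAX probes disagreed: A_23_P151662 was up regulated at 2 Gy (0.17) and with Si306 + 10 Gy (0.12, adjusted p = 0.0134) and read 0.24 for Si306 + 2 Gy on the single array that measured it, and A_23_P436138 read 0.33 for Si306 + 2 Gy and fell by 0.16 and 0.18 after PT alone.

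Under the loess fit CCND1, the cyclin D1 gene, was the member with the largest rise after PT, and it was down regulated when Si306 was added. By the brightest probe, A_23_P202837, the ratio was 0.57 and 0.59 on the 2 Gy arrays and 0.61 and 0.56 on the 10 Gy arrays. It was -0.21 and -0.24 with Si306 + 2 Gy and -0.37 on both arrays with Si306 + 10 Gy. The PT arrays and the Si306 arrays thus lay on opposite sides of 0 without overlap. The means were 0.58 (adjusted p = 8.98e-08) and 0.58 (adjusted p = 6.85e-08) after PT, and -0.23 (adjusted p = 8.57e-05) and -0.37 (1.29-fold lower, adjusted p = 2.38e-06) with Si306. With median centring the Si306 + 2 Gy value was 0.30, the opposite direction, and the Si306 + 10 Gy value -0.00, so the fall with Si306 held only under the loess fit and the scanner's own log ratio.

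A second CCND1 probe, A_24_P193011, carried the largest ratio of any member probe after PT, and its 60 bases are shown for that reason, chosen after the values were seen. It lies on hg17 chr11:69167820-69167879, plus strand, upstream of A_23_P202837 in the gene.
A_24_P193011: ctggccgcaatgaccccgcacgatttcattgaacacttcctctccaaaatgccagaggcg
This probe read 0.90 and 1.01 at 2 Gy (mean 0.95, 1.94-fold higher, adjusted p = 1.03e-08) and 0.88 and 0.80 at 10 Gy (mean 0.84, 1.79-fold higher, adjusted p = 1.82e-08). With Si306 it read -0.05 and 0.04, and neither passed the test. The third probe, A_24_P124550, rose by 0.12 in both PT configurations (adjusted p = 0.0158 and 0.0185) and was 0.25 and 0.21 on the Si306 + 2 Gy arrays, opposite in direction to the brightest probe. The rise after PT was thus called by all 3 CCND1 probes, and the fall with Si306 by the brightest 1 alone. The profiles most like the brightest CCND1 probe over the 8 arrays were those of ATG9A (root mean square difference 0.0372), SEPT10 (0.0550) and LASS5 (0.0637).

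CCND2, the cyclin D2 gene, was near background on the PT slide. Its brightest probe, A_23_P139881, was not well above background in either channel at 2 Gy, and no fold is given there. At 10 Gy it read -0.21 and -0.25 (mean -0.23, adjusted p = 3.15e-04), with 1 of 2 arrays well above background in each channel, while the scanner's log ratio gave -1.11. Since its other 2 probes read as rises at 10 Gy, no direction is drawn for CCND2 there. With Si306 it rose at both doses, 0.32 and 0.24 at 2 Gy (mean 0.28, adjusted p = 5.57e-05) and 0.22 and 0.32 at 10 Gy (mean 0.27, adjusted p = 8.43e-05). These 4 arrays were all above 0, and the direction was kept under median centring and under the scanner's log ratio, although with the latter the calls were lost (adjusted p = 0.0812 and 0.0677). The probe A_24_P270235 also rose with Si306. The rise was 0.19 at 2 Gy (adjusted p = 0.0041), and at 10 Gy it was 0.52, with an adjusted p of 3.12e-06. After PT its Cy3 signal was not well above background, and the rise was at least 1.02-fold at 2 Gy and at least 1.06-fold at 10 Gy. The third tested probe, A_24_P278747, went the other way with Si306, at -0.20 and -0.22 on the 2 Gy arrays (mean -0.21, adjusted p = 0.0014) and -0.06 and -0.02 at 10 Gy (mean -0.04, adjusted p = 0.445). It was well above background in both channels of these 4 arrays, so the rise of CCND2 with Si306 was called by 2 of 3 probes. After PT it was at background in both channels at 2 Gy, and at 10 Gy, with Cy3 at background, its rise was at least 1.04-fold.

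Under the loess fit CCND3, the cyclin D3 gene, was the member whose Si306 response differed most between the doses. Over all settings tried, the difference of CDK2 reached 0.83 and that of MYC -0.50, against at most 0.46 for CCND3. Its probe A_23_P361773 read 0.10 on both 2 Gy arrays (mean 0.10, adjusted p = 0.0307), a call that was lost without either of these arrays (adjusted p = 0.130 and 0.125). At 10 Gy it read 0.23 and 0.26 (mean 0.25, adjusted p = 1.40e-04). With Si306 + 2 Gy it read -0.27 and -0.39 (mean -0.33, adjusted p = 1.41e-05, but 0.12 under median centring), and with Si306 + 10 Gy 0.09 and 0.05 (adjusted p = 0.127, but 0.41 and adjusted p = 3.10e-05 under median centring). The junction probe A_23_P214464 had a Cy3 signal at background after PT, where its rise was at least 1.21-fold at 2 Gy and at least 1.25-fold at 10 Gy, and was at background in both channels of the Si306 arrays.

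CDK4, the cyclin D-dependent kinase and a known MYC target gene, was down regulated after PT by its single probe, A_23_P24997. The ratio was -0.38 and -0.30 at 2 Gy (mean -0.34, 1.26-fold lower, adjusted p = 4.36e-05), and -0.19 and -0.11 at 10 Gy (mean -0.15, adjusted p = 0.00793). The 10 Gy call was lost without the first 10 Gy array (-0.11, adjusted p = 0.149). With Si306 + 2 Gy 1 array measured the probe, at -0.00, and with Si306 + 10 Gy the arrays read 0.04 and 0.12 (adjusted p = 0.121). Under median centring CDK4 was 0.13 at both PT doses, the opposite direction, and it was called higher with Si306 at 2 Gy (0.74) and 10 Gy (0.60, adjusted p = 1.04e-04).

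The promoter of CDK4 is shown because MYC and MAX bind the E-box CACGTG as a dimer and because MYC fell in all 4 configurations under the loess fit while CDK4 did not. The window holds the 250 bases before the RefSeq start, GRCh38.p14 chr12:57752311-57752560, minus strand, with the E-boxes in capitals.
CDK4: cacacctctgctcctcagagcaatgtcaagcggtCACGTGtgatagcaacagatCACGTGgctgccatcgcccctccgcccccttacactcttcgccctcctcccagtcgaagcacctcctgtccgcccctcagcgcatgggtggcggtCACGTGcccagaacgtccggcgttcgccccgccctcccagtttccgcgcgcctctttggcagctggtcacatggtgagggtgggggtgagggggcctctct
Its 3 E-boxes begin 216, 196 and 101 bases before the start. CACGTG, which reads the same on both strands, was found in 6.34% of 35116 RefSeq promoter windows of this length, and 3 or more copies in 0.0797%. RefSeq windows were at hand for 6 of the 10 members (10 windows), and CDK4 had the only one with an E-box. The single RB1 window lies 172699 bases from the annotated start of the gene, and 2 of the 3 CCND3 windows lie 108227 and 110830 bases from theirs, so these windows do not describe the promoter at the annotated start. The E2F letters TTTNNCGC, on either strand, were in none of these windows and in 5.92% of all windows. A match describes the letters only.

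CDK6, the other cyclin D-dependent kinase, was up regulated after PT, more at 2 Gy than at 10 Gy. Its probe A_24_P166663 read 0.38 and 0.48 at 2 Gy (mean 0.43, 1.35-fold higher, adjusted p = 1.77e-06) and 0.16 and 0.18 at 10 Gy (mean 0.17, adjusted p = 0.00148), without overlap between the doses. Si306 + 2 Gy read -0.18 and -0.15 (mean -0.16, adjusted p = 0.00199) and Si306 + 10 Gy -0.08 and -0.03 (adjusted p = 0.208). Under median centring these were 0.52 and 0.41, the opposite direction. After PT the value ran from 0.35 to 0.74 at 2 Gy and from 0.14 to 0.42 at 10 Gy over all settings tried. The second probe, A_23_P168651, which spans an exon junction, had its Cy3 signal at background on all arrays of 3 configurations. Its rise there was at least 1.07-fold at 2 Gy, 1.06-fold with Si306 + 2 Gy and 1.04-fold with Si306 + 10 Gy. With Si306 this was opposite in direction to the brightest probe, so the fall with Si306 + 2 Gy was called by the brightest probe alone. At 10 Gy its Cy3 signal was well above background on 1 of 2 arrays, and no value is given.

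CDK2, the kinase of cyclins E and A, followed the same order at a signal close to background, with log2 intensities between 6.5 and 7.0. Its single probe, A_23_P98898, read 0.32 and 0.29 at 2 Gy (mean 0.31, adjusted p = 1.18e-05) and 0.12 and 0.07 at 10 Gy (mean 0.10, adjusted p = 0.0240). It read -0.41 and -0.38 with Si306 + 2 Gy (mean -0.40, adjusted p = 1.25e-06) and -0.09 and -0.10 with Si306 + 10 Gy (mean -0.09, adjusted p = 0.0271). The 10 Gy call was lost without the first 10 Gy array (0.07, adjusted p = 0.228) and the Si306 + 10 Gy call without either of its arrays (adjusted p = 0.135 and 0.172). Under median centring CDK2 was -0.02 at 2 Gy and -0.22 at 10 Gy, the opposite direction. At this signal the size of the ratio changed with the processing, and the scanner's own log ratios were 0.84, 0.20, -1.21 and -0.37 on the log2 scale in the same order.

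RB1, whose product is the substrate of the G1 kinases, was up regulated after PT and down regulated when Si306 was added, at both doses. The brightest probe, A_23_P204850, read 0.43 and 0.41 at 2 Gy and 0.44 and 0.41 at 10 Gy. It read -0.69 on both Si306 + 2 Gy arrays and -0.71 and -0.70 on the Si306 + 10 Gy arrays. The 4 PT arrays and the 4 Si306 arrays did not overlap. The means were 0.42 (1.34-fold higher, adjusted p = 8.20e-07), 0.43 (adjusted p = 6.10e-07), -0.69 (1.62-fold lower, adjusted p = 1.92e-08) and -0.71 (1.63-fold lower, adjusted p = 2.59e-08). All 4 calls held when any single array was left out, and median centring kept the directions at 0.72, 0.68, -0.10 and -0.30.

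A second RB1 probe did not show this pattern, and its 60 bases are shown for that reason, chosen after the values were seen. It bridges 2 exons on hg17 chr13:47832236-47834982, plus strand, while the brightest probe lies on chr13:47953846-47953905, toward the far end of the gene.
A_24_P102636: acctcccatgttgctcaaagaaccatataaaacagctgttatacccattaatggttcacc
It read -0.04 at 2 Gy and -0.13 at 10 Gy (adjusted p = 0.0557), -0.10 on the single Si306 + 2 Gy array that measured it, and -0.25 and -0.01 on the Si306 + 10 Gy arrays (mean -0.13, adjusted p = 0.0490). The rise of RB1 after PT and its fall with Si306 + 2 Gy were therefore called by the brightest probe alone, while the fall with Si306 + 10 Gy was called by both probes.

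CDKN1B, which encodes p27, had opposite directions at the 2 doses after PT and was called with Si306 at 2 Gy. The brightest probe, A_24_P81841, read -0.25 and -0.22 at 2 Gy (mean -0.23, adjusted p = 6.82e-05) and 0.10 on both 10 Gy arrays (mean 0.10, adjusted p = 0.0178). The 10 Gy call was lost without either of its arrays (adjusted p = 0.0938 and 0.102), and the value was -0.02 with every scan kept under its label. With Si306 + 2 Gy it read 0.25 on both arrays (mean 0.25, adjusted p = 3.26e-05), and with Si306 + 10 Gy -0.02 and -0.01 (adjusted p = 0.697). Under median centring CDKN1B was 0.01 at 2 Gy and 0.34 for Si306 + 10 Gy, the opposite direction. Over all settings tried, its value ran from 0.23 to 0.76 for Si306 + 2 Gy and from -0.02 to 0.32 at 10 Gy. The second probe, A_23_P204696, read -0.18 at 2 Gy, -0.15 at 10 Gy and 0.20 for Si306 + 2 Gy, so the probes had opposite signs at 10 Gy.

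**Figure D2:**
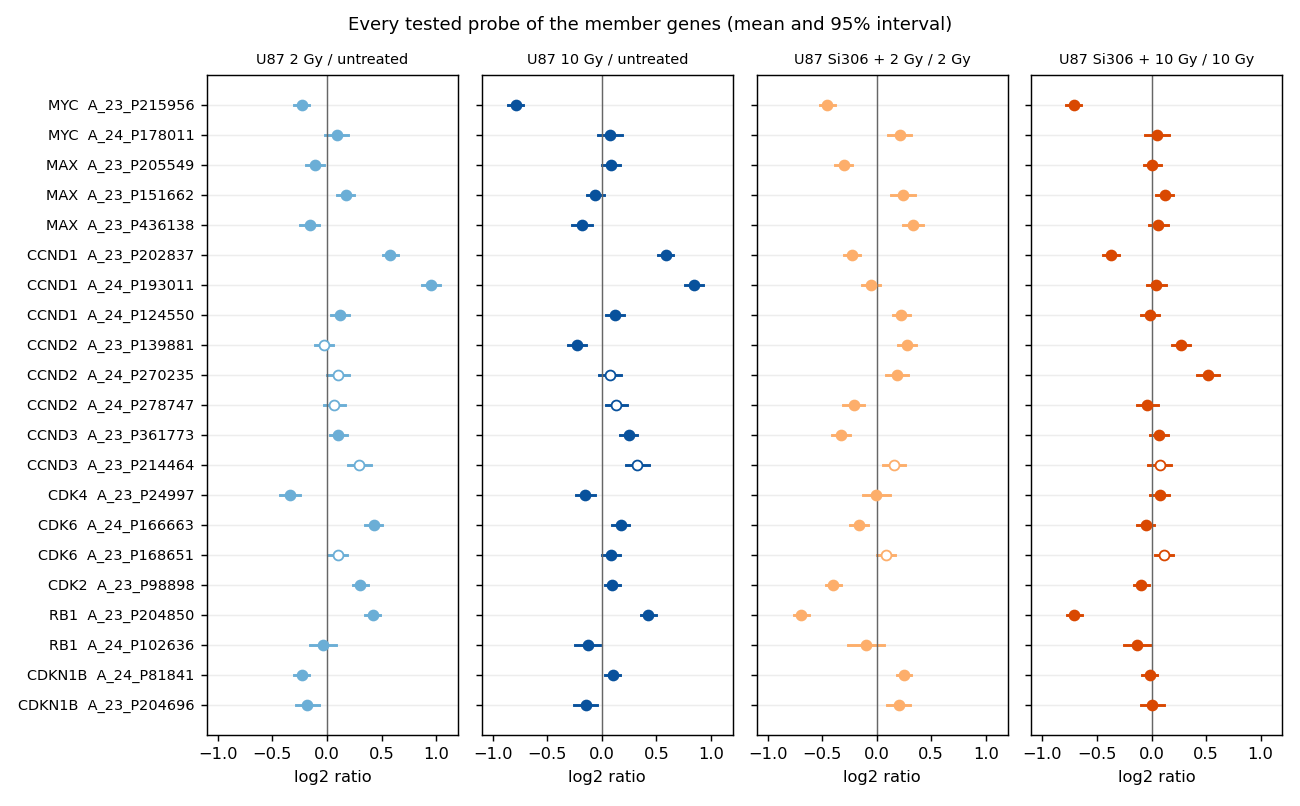
Mean log2 ratio of every tested member probe in the 4 configurations, with hollow points where at least 1 channel was not well above background on all arrays of the configuration. The 3 CCND1 probes lie above 0 after PT, while the 2 RB1 probes, the MAX probes and, with Si306, the CCND2 probes part from each other.

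The doses were compared within the PT slide and within the Si306 slide. After PT alone 7 members were called different between 10 Gy and 2 Gy, where 20.4% of gene names were. CCND2 is 1 of the 7, but its 2 Gy value was at background in both channels, so its difference (-0.20) is not a measured one. MYC was lower at 10 Gy by a difference of -0.56 (95% interval -0.66 to -0.46, adjusted p = 2.77e-05), the largest of the members under the loess fit, and CDKN1B was higher by 0.33 (0.24 to 0.43, adjusted p = 5.79e-04). CDK6 (-0.26, adjusted p = 0.00502) and CDK2 (-0.21, adjusted p = 0.00900) were also lower at 10 Gy. MAX (0.19, adjusted p = 0.0245) and CDK4 (0.19, adjusted p = 0.0411) were higher. The background was 9.59% higher and 10.8% lower. No member differed by 2-fold between the doses, after PT alone or in its Si306 response, where 0.0437% and 0.17% of gene names did.

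RNA with the same PT labels was also read in Cy3 on slide 2, and the differences of slide 1 were not seen in its mean log2 intensities, which were 13.12 at 2 Gy and 13.06 at 10 Gy for MYC, 10.58 and 10.58 for CDKN1B, 12.65 and 12.58 for CDK6, and 6.91 and 6.92 for CDK2. These slide 2 intensities come from different arrays at the 2 doses and were not tested.

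The smaller of these differences rested on single arrays or on the scaling. MAX lost its call without the first 2 Gy array (adjusted p = 0.131) or without either 10 Gy array (0.0625 and 0.148). CDK4 did so without the first 2 Gy array (0.176), either 10 Gy array (0.0754 and 0.226) or either Si306 + 10 Gy array (0.0509 and 0.0512), and CDK2 without the second 10 Gy array (0.0679). Under median centring MAX (0.12, adjusted p = 0.293), CDK2 (-0.20, adjusted p = 0.0921) and CDK4 (adjusted p = 0.999) lost their calls. MYC, CDKN1B and CDK6 kept theirs without any single array and under median centring. With all 24 scans kept under their labels, none of the 7 differences passed the test (MYC -0.18, adjusted p = 0.996), and neither did any of the 30362 probes tested. All these differences are those of the brightest probes. The second CDKN1B probe was below 0 at both doses. In mean log2 intensity, untreated and then treated, the MYC probe A_24_P178011 read 7.46 and 7.55 at 2 Gy, and 7.39 and 7.46 at 10 Gy. The MAX probe A_23_P151662 read 9.27 and 9.44, then 9.19 and 9.13, so it was lower at 10 Gy, opposite to the brightest MAX probe. CCND1 and RB1 did not differ beyond their spread, with differences of 0.00 (95% interval -0.10 to 0.10) and 0.01 (-0.09 to 0.10).

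A difference between the doses in the Si306 response was called for 6 members, where 21.8% of gene names had one (9.73% higher and 12.1% lower). It was higher at 10 Gy for CCND3 (difference 0.40, adjusted p = 5.38e-04), MAX (0.31, adjusted p = 0.00232) and CDK2 (0.30, adjusted p = 0.00128), each down regulated at 2 Gy by its brightest probe. The other MAX probes went against this. In mean log2 intensity A_23_P436138 went from 7.36 to 7.69 with Si306 + 2 Gy and from 7.35 to 7.41 with Si306 + 10 Gy. A_23_P151662 went from 7.96 to 8.20, on the single array that measured it, and from 8.02 to 8.14. The Si306 response was lower at 10 Gy for CDKN1B (-0.27, adjusted p = 0.00220), MYC (-0.26, 95% interval -0.35 to -0.16, adjusted p = 0.00253) and CCND1 (-0.14, adjusted p = 0.0457). The CCND1 call was lost without either 10 Gy array (adjusted p = 0.0542 and 0.0541), either Si306 + 2 Gy array (0.184 and 0.102) or either Si306 + 10 Gy array (0.156 and 0.167). RB1 showed no difference beyond its spread, at -0.02 (95% interval -0.11 to 0.08), although under median centring it was -0.21 (adjusted p = 0.0143). With every scan kept under its label CCND3 and MAX kept their calls and MYC (adjusted p = 0.505), CDKN1B (0.250), CCND1 (0.113) and CDK2 (0.0548) lost theirs, where 2372 of 30362 probes were called, against 6404 otherwise. Under median centring MAX lost its call (0.09, adjusted p = 0.307).

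**Figure D3:**
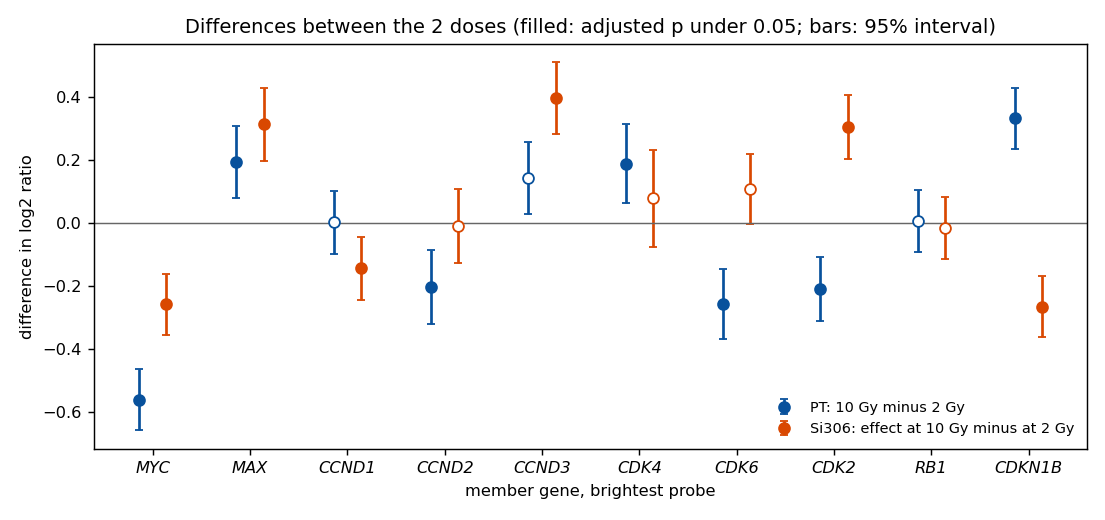
Difference of the log2 ratio between 10 Gy and 2 Gy for the brightest probe of each member, after PT alone and for the Si306 configurations, with bars for the 95% interval and filled points at an adjusted p under 0.05. MYC has the lowest difference after PT alone (-0.56) and CCND3 the highest for the Si306 change (0.40).

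The intensities behind the ratios were compared within a slide only. For MYC the mean log2 intensity on slide 1 was 13.38 and 13.46 in untreated cells, 13.15 after 2 Gy and 12.67 after 10 Gy. On slide 2 it was 13.12 in U87 2 Gy and 12.67 with Si306 added, and 13.06 in U87 10 Gy and 12.35 with Si306 added. CCND1 rose from 10.57 to 11.15 and from 10.47 to 11.06 on slide 1, and went from 11.07 to 10.85 and from 11.08 to 10.71 on slide 2. RB1 went from 9.82 to 10.24 and from 9.89 to 10.32 on slide 1, but from 12.05 to 11.36 and from 11.98 to 11.27 on slide 2.

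RNA with the same PT label was read in Cy5 on slide 1 and in Cy3 on slide 2, and several members did not have the same level there. Slide 2 minus slide 1 was 1.81 and 1.67 for RB1 at 2 Gy and 10 Gy, 2.26 and 2.53 for CDK6, 1.88 and 1.64 for CCND3, 1.95 and 2.06 for CCND2, 1.42 and 1.15 for CDKN1B and -1.03 at both doses for CDK4. It was -0.03 and 0.39 for MYC, -0.07 and -0.31 for MAX and -0.08 and 0.02 for CCND1. Probes of 1 gene parted as well, with -2.25 and -2.16 for the CCND1 probe A_24_P193011 and -0.08 at both doses for the RB1 probe A_24_P102636. Over all tested probes the SD of this difference was 1.18 at both doses, against 0.259 to 0.296 between the channels of a slide. Slide and dye cannot be told apart here, and no level of a Si306 configuration was set against untreated cells.

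**Figure D4:**
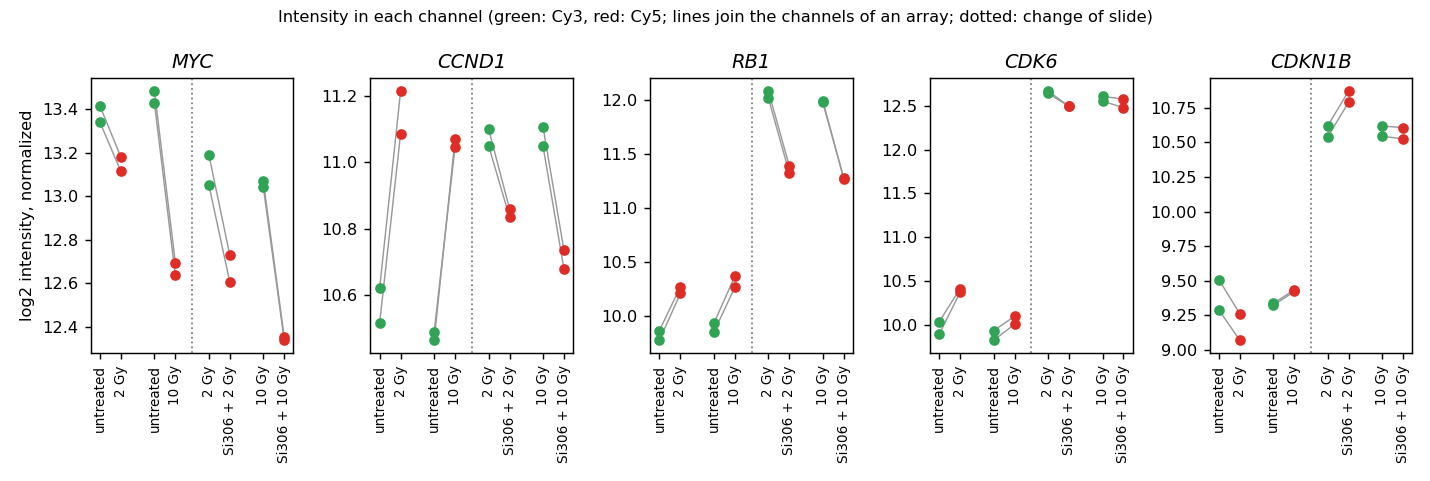
Normalized log2 intensity of the brightest probes of MYC, CCND1, RB1, CDK6 and CDKN1B in the Cy3 (green) and Cy5 (red) channel of each array, with lines joining the channels of an array and a dotted line at the change of slide. RB1, CDK6 and CDKN1B sit higher on slide 2 in both channels, while CCND1 has like levels of PT-treated RNA on both slides and MYC has them at 2 Gy but not at 10 Gy (12.67 and 13.06).

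**Figure D5:**
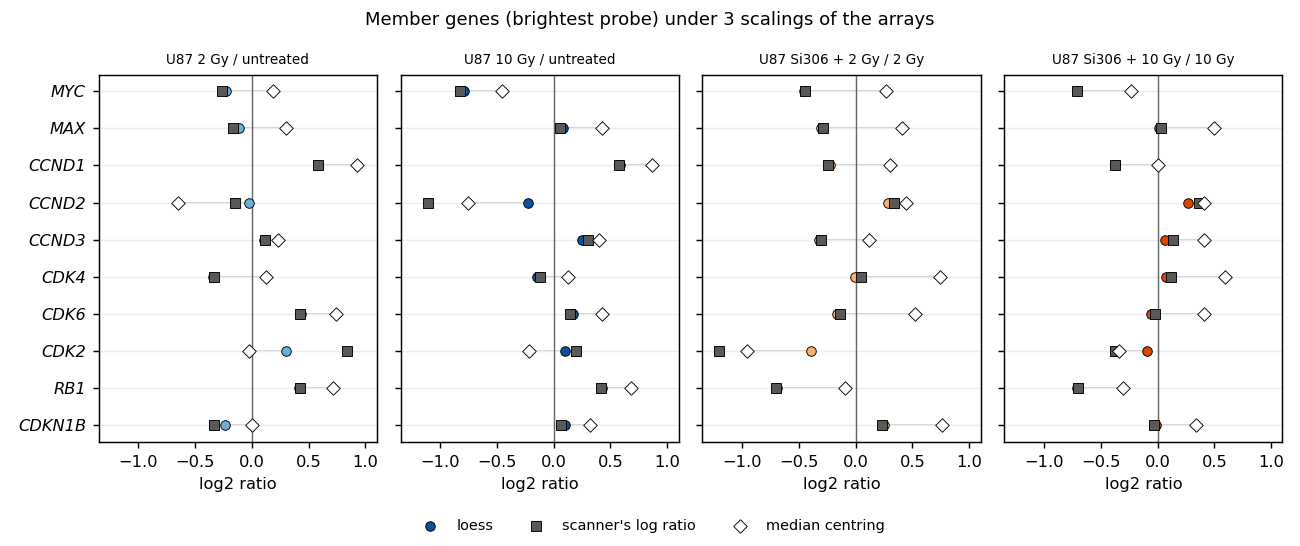
Log2 ratio of each member's brightest probe after the loess fit, as the scanner's own log ratio and after median centring, in the 4 configurations. Loess and scanner values lie close together for all members but CCND2 and CDK2, and most median-centred values lie to the right of them.

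Around MYC and MAX, 9 of 10 listed MYC-family and MXD-family partners were tested, and the counts called higher and lower were 2 and 4 at 2 Gy, 2 and 4 at 10 Gy, 4 and 2 for Si306 + 2 Gy and 5 and 1 for Si306 + 10 Gy. The share of the list called was 66.7% in each configuration, beside 56.8%, 57.2%, 66% and 61.9% of gene names. Median centring turned the counts to 5 and 2, 6 and 1, 6 and 1, and 6 and 1. The MYC antagonist MXI1 fell by 0.49 at 2 Gy (-0.21 under median centring) and by 0.32 at 10 Gy, where median centring left -0.08 and no call (adjusted p = 0.156). It rose by 0.61 with Si306 + 2 Gy (1.05 under median centring), a response that was lower by -0.48 at 10 Gy. MXD1, another antagonist, rose by 0.28 after 10 Gy and by 0.33 with Si306 + 2 Gy (0.56 and 0.80 under median centring), and MGA, a MAX partner, rose by 0.30 with Si306 + 10 Gy (0.45 under median centring). MLXIP, a glucose-sensing relative, fell by 0.34 with Si306 + 10 Gy, but was 0.03 under median centring.

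Of 14 listed MYC target genes, all were tested, and 3 were higher and 4 lower at 2 Gy, 7 and 5 at 10 Gy, 5 and 6 with Si306 + 2 Gy, and 6 and 5 with Si306 + 10 Gy. Their medians were 0.01, 0.09, -0.06 and 0.02, near those of all gene names. Called were 50%, 85.7%, 78.6% and 78.6% of the list, beside 56.8%, 57.2%, 66% and 61.9% of gene names. With median centring the counts were 13 and 1, 12 and 0, 12 and 0, and 12 and 0, so the direction of the list changed with the scaling. The split over all probes under this centring was near even in each configuration, as given above. CAD, which starts pyrimidine synthesis, rose after PT (0.47 at 2 Gy and 0.37 at 10 Gy, and 0.75 and 0.61 under median centring). The nucleolar protein gene NOP56, listed on the array as NOL5A, fell by 0.76 with Si306 + 2 Gy but was 0.16 under median centring, and it fell by 0.66 with Si306 + 10 Gy, a call lost under median centring (-0.04, adjusted p = 0.399). The serine pathway enzyme gene SHMT2 fell by 0.32 at 10 Gy (0.04 under median centring) and rose by 0.49 with Si306 + 2 Gy (1.25 under median centring). NCL, a nucleolar protein gene, fell by 0.42 with Si306 + 10 Gy (0.27 under median centring).

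The 6 listed CDK inhibitors, beside CDKN1B, were called 1 higher and 1 lower at 2 Gy, 1 and 2 at 10 Gy, 4 and 1 with Si306 + 2 Gy, and 3 and 2 with Si306 + 10 Gy (2 and 2, 2 and 2, 5 and 1, and 5 and 1 under median centring). Under the loess fit this was 33.3%, 50%, 83.3% and 83.3% of the list, beside 56.8%, 57.2%, 66% and 61.9% of gene names. CDKN1A, the p53-induced p21 gene, read 0.39 and 0.38 on the 2 Gy arrays (mean 0.38, adjusted p = 1.56e-06, and 0.80 under median centring). Its mean on the 10 Gy arrays was 1.19 (2.29-fold higher, adjusted p = 2.43e-10). Its difference between the doses was 0.81 (adjusted p = 3.89e-06), against -0.56 for MYC on the same arrays, and with every scan kept under its label it was 0.26 (adjusted p = 0.996). CDKN2A rose by 0.82 with Si306 + 2 Gy (adjusted p = 4.97e-08) and by 0.73 with Si306 + 10 Gy (adjusted p = 1.35e-07). Its probe was well above background on 8 of 8 arrays, although the locus is known to be deleted in U87 MG cells, while the neighbouring gene MTAP was above background on 0 arrays, so the origin of this signal was not tested. CDKN2B of the same locus was near background, above it in Cy3 on 3 arrays. CDKN2D fell by 0.30 at 10 Gy (0.01 under median centring) and rose by 0.33 with Si306 + 2 Gy (1.16 under median centring).

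Downstream of RB1, 12 pocket protein and E2F genes were tested, with 5 higher and 3 lower at 2 Gy and 7 and 4 at 10 Gy, but 1 higher and 8 lower in both Si306 configurations. The medians were -0.12 with Si306 + 2 Gy and -0.17 with Si306 + 10 Gy. In the order above 66.7%, 91.7%, 75% and 75% of the list were called, beside 56.8%, 57.2%, 66% and 61.9% of gene names. With Si306, 27.7% and 27% of gene names were called lower at 2 Gy and 10 Gy. Median centring gave 8 and 1, 7 and 1, 6 and 2, and 5 and 3. E2F1, an activator of S-phase genes, fell by 0.66 with Si306 + 2 Gy (adjusted p = 2.51e-08) and by 0.75 with Si306 + 10 Gy (adjusted p = 1.88e-08), which median centring reduced to -0.13 (adjusted p = 0.0164) and -0.37. E2F7, a repressor of the family, fell by 0.62 at 2 Gy (-0.22 under median centring), while E2F8 rose by 0.38 there, a call lost under median centring (0.13, adjusted p = 0.0825). E2F2 rose by 0.64 at 10 Gy and fell by 0.53 with Si306 + 10 Gy (-0.24 under median centring), and E2F4 fell by 0.34 with Si306 + 2 Gy, but was 0.13 under median centring.

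Among the 5 genes of cyclins E and A and the phosphatase CDC25A, 2 were higher and 2 lower at 2 Gy and 1 and 1 at 10 Gy, whereas 0 were higher and 5 lower with Si306 + 2 Gy and 1 and 4 with Si306 + 10 Gy. Their medians with Si306 were -0.34 and -0.26. In the same order 80%, 40%, 100% and 100% of this short list were called, beside 56.8%, 57.2%, 66% and 61.9% of gene names. Median centring gave 1 and 3, 1 and 3, 1 and 2, and 2 and 3. CCNA2, the S-phase and G2 cyclin A2, fell after PT by 0.46 at 2 Gy (adjusted p = 5.08e-07) and by 0.79 at 10 Gy (adjusted p = 6.40e-09), as MYC did, and by the scanner's log ratio was -0.72 at 2 Gy. It had a difference between the doses of -0.33 that was -0.12 with every scan kept under its label (adjusted p = 0.996). CCNE2, a cyclin E gene, fell by 0.49 with Si306 + 2 Gy, and CCNA1, which was well above background on the 4 Si306 arrays only, fell by 0.37 and 0.58 with Si306 at 2 Gy and 10 Gy (-0.78 and -1.45 by the scanner's log ratio).

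For the CDK-activating kinase and the ubiquitin ligase parts that turn over p27, 6 genes were tested, with 3 higher and 1 lower at 2 Gy, 3 and 0 at 10 Gy, 1 and 1 with Si306 + 2 Gy, and 0 and 3 with Si306 + 10 Gy. That was 66.7%, 50%, 33.3% and 50% of the list, beside 56.8%, 57.2%, 66% and 61.9% of gene names. Under median centring the counts were 5 and 0, 5 and 0, 5 and 1, and 5 and 1. FBXW7, which targets cyclin E and MYC for degradation, rose by 0.22 at 2 Gy, where the arrays read 0.31 and 0.14, and by 0.42 at 10 Gy (0.56 and 0.70 under median centring). Without the first 2 Gy array its 2 Gy value was 0.14. SKP2, which targets p27, fell by 0.19 with Si306 + 2 Gy and by 0.33 with Si306 + 10 Gy (-0.44 and -0.77 by the scanner's log ratio). CDK7 fell by 0.30 with Si306 + 10 Gy (0.13 under median centring), and CCNH fell by 0.24 at 2 Gy (0.17 under median centring), a call that was lost without the first 2 Gy array (-0.13, adjusted p = 0.0521).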

How the data were processed

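RNA of U87 cells was hybridized to 2-colour Agilent arrays in 4 configurations. The deposited scanner tables hold the mean signal intensity and local background of 45015 spots in each channel, made by the authors with Agilent Feature Extraction 9.5.3.1, and a log10 ratio, which was background-corrected and dye-normalized by the same software. The deposited series matrix holds that log10 ratio rounded to within 0.00500. Numbers use decimal commas, read here as points. The design had foreseen the labelled 6 replicates per configuration. Because the headers name 8 arrays scanned 3 times each, repeat scans were averaged, and 2 scans whose label and array disagreed were left out.

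Outlier spots (3.10% to 5.98% of a scan) and control spots were left out, and saturated spots (at most 0.0156%) were kept. Intensities were corrected with normexp (offset 50) and normalized by loess in limma 3.58.1 under R 4.3.3 (data.table version 1.17.8, statmod 1.5.0). Spots of a probe were averaged. Probes well above background in either channel on 2 arrays of at least 1 configuration were kept (30362 probes, 22898 gene names). The 8 arrays entered 1 linear model, which left 4 residual degrees of freedom, with an empirical Bayes prior (6.78 degrees of freedom, SD 0.0548). The median SE was 0.0385 for a configuration and 0.0546 between doses. A channel at background on all arrays of a configuration gave a lower bound of the fold or none. The number of arrays limits the precision. In simulated data 93 to 98 of 100 probes changed by 0.5 log2 units were recovered in a single configuration, and 183 and 179 of 200 in the differences between doses.

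The named genes are all members, with every probe, and up to 2 genes per gene list and comparison with the largest called change of the same sign on all arrays, of which a part is printed, and CDKN2A, CDKN2B and MTAP. A further marker of the line is not reported here. Likeness of profiles was the root mean square difference of log2 ratios over the arrays. The members, gene lists and tests were chosen with earlier results of these data known. Alternatives were median centring, the scanner log ratio, other background corrections, filters and blocks, each scan under its label, and leaving out each array. Promoter windows came from RefSeq (GRCh38.p14) and probe positions from the array design (hg17).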

Additional observations from a re-analysis of the deposited data

Results flagged for a closer look

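A difference between the 2 doses was tested for every member by its brightest probe, and 13 differences passed. They were 7 after PT alone and 6 in the Si306 response, where 20.4% and 21.8% of gene names passed. With every scan kept under its label 0 and 2 of them passed, and several depended on single arrays or on the scaling, as given above. After PT alone, the log2 ratio at 10 Gy minus that at 2 Gy was -0.56 for MYC, 0.19 for MAX, -0.20 for CCND2 (whose 2 Gy value was at background in both channels, so that this is not a measured difference), 0.19 for CDK4, -0.26 for CDK6, -0.21 for CDK2 and 0.33 for CDKN1B. For the change with Si306, the value at 10 Gy minus that at 2 Gy was -0.26 for MYC, 0.31 for MAX, -0.14 for CCND1, 0.40 for CCND3, 0.30 for CDK2 and -0.27 for CDKN1B. RNA with the same PT label was the treated sample in the first comparison and the control in the second, and whether it was the same RNA is not known.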

How the results depend on the processing

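Each member value was recomputed under 20 settings. Of 1188 values, 1076 kept direction and side of the threshold, 72 lost the call, 24 gained it and 16 reversed, and of 120 counts of called members 112 stayed within 1.5 times. Median centring reversed 15 values: MYC 0.19 (2 Gy) and 0.27 (Si306 + 2 Gy), MAX 0.30 and 0.40 in the same configurations, CCND1 0.30 and CCND3 0.12 (both Si306 + 2 Gy), CDK4 0.13 at 2 Gy, 0.13 at 10 Gy and 0.74 (Si306 + 2 Gy), CDK6 0.52 and 0.41 (Si306 at 2 Gy and 10 Gy), CDK2 -0.022 and -0.22 (2 Gy and 10 Gy) and CDKN1B 0.0051 (2 Gy) and 0.34 (Si306 + 10 Gy). It called 9 members for Si306 + 10 Gy, where 5 were called, and 3 between the PT doses, where 7 were called, while calls over all 30362 probes went from 18480 to 24982 and from 6015 to 4259. The cause was not tested. With every scan under its label, CDKN1B at 10 Gy reversed to -0.016, 0 members differed between the PT doses (MYC -0.18, adjusted p = 0.996) and 2 differed in their Si306 response, as 0 and 2372 of 30362 probes did. Without both arrays that hold a scan of the other label, an alternative chosen after seeing the data, 2 members and 2374 of 29577 probes differed between the PT doses. Of 1321 values of named list genes, 10 reversed, all under median centring: MLXIP 0.030, NCL 0.27 and CDK7 0.13 (Si306 + 10 Gy), SHMT2 0.042, CDKN2D 0.013 and CDC25A -0.041 (10 Gy), NOP56 0.16 and E2F4 0.13 (Si306 + 2 Gy), CCNH 0.17 (2 Gy) and the Si306 dose difference of E2F3 -0.029.

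Leaving out an array gave counts of called members of 7 to 9 at 2 Gy, 6 to 9 at 10 Gy, 9 to 9 for Si306 + 2 Gy, 4 to 5 for Si306 + 10 Gy, 3 to 7 between the PT doses (4 and 3 without the first and the second U87 10 Gy array, with 3285 of 30268 and 3022 of 30215 probes) and 5 to 6 for the Si306 response. CDK4 had no value for Si306 + 2 Gy without the second array of that configuration.

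The replicate numbers of the labels did not pair the samples, with correlations of their deviations from -0.09 to 0.06. With the replicate number as a block and scans as samples, 9, 10, 9 and 8 members were called in the 4 configurations and 8 and 7 in the differences between doses, where 21283, 21563, 23771, 23019, 12655 and 15297 of 30362 probes were called, and since repeat scans are not independent this block overstates the evidence.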

Other observations

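Over all tested probes, the level of PT-treated RNA on slide 2 minus that on slide 1 had a median of -0.08 at both doses on the log2 scale. The median was 0.13 and 0.11 at 2 Gy and 10 Gy for probes with up to 40% GC, -0.13 and -0.12 between 40% and 55%, and -0.33 and -0.30 for probes with at least 55%. Of the member probes that differed most, those of CDK6 and RB1 hold 35% GC and the CCND1 probe A_24_P193011 holds 55%. Others went against this order: the CCND2 probe A_24_P270235, with 55% GC, was 1.57 and 1.69 higher on slide 2, and the MAX probe A_23_P151662, with 43.3% GC, was at -1.47 and -1.12. How far the slide enters the ratios of single members was not tested. The members' ratios were also fitted with a curve on probe GC content, under which 58 of 60 values kept direction and side of the threshold.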
